A study of Mus musculus with 2 samples.

Results

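Open chromatin was described at 10 genes of the Notch pathway in newborn mouse lung. The genes were the receptors Notch1, Notch2, Notch3 and Notch4, the ligands Jag1, Jag2, Dll1 and Dll4, and the target genes Hes1 and Hey1. They were taken by name from 21911 protein-coding gene models of GENCODE on assembly mm10. For each gene, accessible sites were collected within 500 bp of any annotated transcription start site (TSS) and within 50 kb of the gene body. These windows held 425 of the 290376 sites of the series.

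The series held 1 group, whole lung of mice of the strain given as B6NCrl at an age of 0 days after birth, in 2 biological replicates. No allele or treatment is named in the labels. DNase-seq was used, in which DNase I cuts DNA where nucleosomes are displaced, so that dense cuts mark promoters, enhancers and insulators. The labels give the same donor entry for both biosamples and do not say whether these were separate animals or pools, so that the spread between replicates may be partly technical. Sex was not collected, and no sequencing depth was given.

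Notch receptors are cut after a neighbouring cell presents a Jagged or Delta-like ligand, and the freed intracellular part enters the nucleus, where it joins the DNA-binding protein RBPJ and a Mastermind coactivator. Genes of the Hes and Hey families, which encode transcriptional repressors, are classic targets of this complex. In the lung the pathway is known for the choice between secretory and ciliated cells in the airway, for alveolar development, and for the growth of vessels and their mural cells.

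The files listed 276480 peaks in replicate 1 and 188498 peaks in replicate 2 on the chromosomes used, each 150 bp wide. Per peak the authors listed a score, always a whole number and at most 150, and the sources used here do not say what it measures. Peaks that overlapped were merged into sites, and a site with peaks of both replicates is called shared. Of all sites, 161051 were shared. In whole tissue, an open site in fewer cells and a weaker opening in each cell cannot be told apart. Markers of the lung had shared promoter sites, namely 7 of 8 genes of lung epithelium, 5 of 5 of endothelium, 5 of 5 of mesenchyme and 4 of 4 of smooth muscle and pericytes. These small lists are to be read against the 68.5% of all protein-coding genes that had a shared promoter site. Of 6 blood cell genes 3 had one, and of 5 genes of other tissues only Alb did, with scores of 36 and 40. The club cell gene Scgb1a1 had a promoter peak in replicate 1 alone, with a score of 48.

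Distal sites are shared sites centred more than 1000 bp from any TSS. Sequences are shown for the strongest distal site of the receptors and that of the ligands, the ones that ranked highest by score over both replicates. They are given on the plus strand of RefSeq's GRCm38.p6, the assembly that mm10 denotes. Capitals in the Notch2 site mark matches to the TEAD motif GGAATG, at its start, and to the HES N-box CACNAG, on either strand. The whole site was searched here, and the TEAD match lies outside the central 150 bp in which motifs are counted below. The Dll4 sequence held no match to any of the 9 motifs searched.
Notch2 site at chr3:98024576-98024765: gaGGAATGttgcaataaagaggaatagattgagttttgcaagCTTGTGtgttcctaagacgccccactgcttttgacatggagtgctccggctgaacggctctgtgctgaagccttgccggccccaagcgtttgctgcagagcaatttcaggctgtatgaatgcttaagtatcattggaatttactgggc
Dll4 site at chr2:119337996-119338145: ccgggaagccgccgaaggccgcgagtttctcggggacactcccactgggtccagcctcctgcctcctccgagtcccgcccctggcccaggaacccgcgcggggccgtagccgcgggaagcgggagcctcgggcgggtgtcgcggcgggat

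Further sequences are shown because they hold GTGGGAA, the core of the site that RBPJ binds. Capitals mark that motif, which reads TTCCCAC where it lies on the minus strand. These are 6 of the 12 distal sites with the motif and 1 promoter site, that of Notch4.
Notch2 site at chr3:98098776-98098925: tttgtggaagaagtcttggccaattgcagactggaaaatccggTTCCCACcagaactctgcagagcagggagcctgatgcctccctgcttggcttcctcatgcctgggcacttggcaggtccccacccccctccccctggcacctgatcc
Notch1 site at chr2:26525796-26525965: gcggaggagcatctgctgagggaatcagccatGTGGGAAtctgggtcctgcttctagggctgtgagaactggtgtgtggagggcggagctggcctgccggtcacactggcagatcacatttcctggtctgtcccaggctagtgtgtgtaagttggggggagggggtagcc
Notch3 site at chr17:32162256-32162405: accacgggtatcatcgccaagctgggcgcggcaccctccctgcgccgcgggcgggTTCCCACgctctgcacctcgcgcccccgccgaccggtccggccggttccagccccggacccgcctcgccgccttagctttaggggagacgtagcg
Notch4 site at chr17:34632416-34632645: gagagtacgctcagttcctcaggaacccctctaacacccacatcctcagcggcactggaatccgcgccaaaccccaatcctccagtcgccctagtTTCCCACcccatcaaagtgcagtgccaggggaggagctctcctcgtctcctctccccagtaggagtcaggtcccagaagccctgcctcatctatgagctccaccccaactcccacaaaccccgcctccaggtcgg
Notch1 site at chr2:26502356-26502545: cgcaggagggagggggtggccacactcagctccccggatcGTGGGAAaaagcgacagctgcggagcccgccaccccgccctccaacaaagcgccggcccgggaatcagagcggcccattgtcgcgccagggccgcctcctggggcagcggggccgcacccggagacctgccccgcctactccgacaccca
Notch4 site at chr17:34564936-34565105: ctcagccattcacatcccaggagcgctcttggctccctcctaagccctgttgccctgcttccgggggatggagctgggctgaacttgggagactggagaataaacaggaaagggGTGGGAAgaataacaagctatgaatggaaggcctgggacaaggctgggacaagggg
Dll4 site at chr2:119327176-119327365: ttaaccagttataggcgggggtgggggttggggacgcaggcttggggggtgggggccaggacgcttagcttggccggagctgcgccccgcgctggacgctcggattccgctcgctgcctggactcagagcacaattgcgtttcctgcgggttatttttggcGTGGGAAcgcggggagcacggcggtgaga

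The promoters of all 10 Notch pathway genes were open in both replicates. A shared promoter site, here any part of a shared site within 500 bp of any TSS of the gene, was present at 10 of 10 members, against 68.5% of all protein-coding genes (15010 of 21911). More than 1 such site lay at 7 of 10 members, against 40.6% of all genes, which include genes with no site. Of the 15010 genes with a site, 8890 had more than 1, and the median over those 15010 was 2 sites. With only the most upstream start of each gene, 3 of 10 members had more than 1 (Jag1, Jag2 and Hey1). The share of all genes was then 26.1%, again with genes without a site included. The higher count of members thus rested on further annotated starts. Notch2, Notch3 and Dll4 had a single shared promoter site. The members' strongest promoter scores had a median of 119.5 in replicate 1 and 98 in replicate 2. Among the 15010 genes with a shared promoter site the medians were 121 and 101. Scores above those medians were found at 4 of 10 members in replicate 1 and at 3 of 10 in replicate 2, so that the members' promoters were open but not high as a group. Within the group the scores were spread widely, with Hes1 highest in both replicates and Jag2, Notch3 and Dll1 lowest in both.

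**Figure D1:**
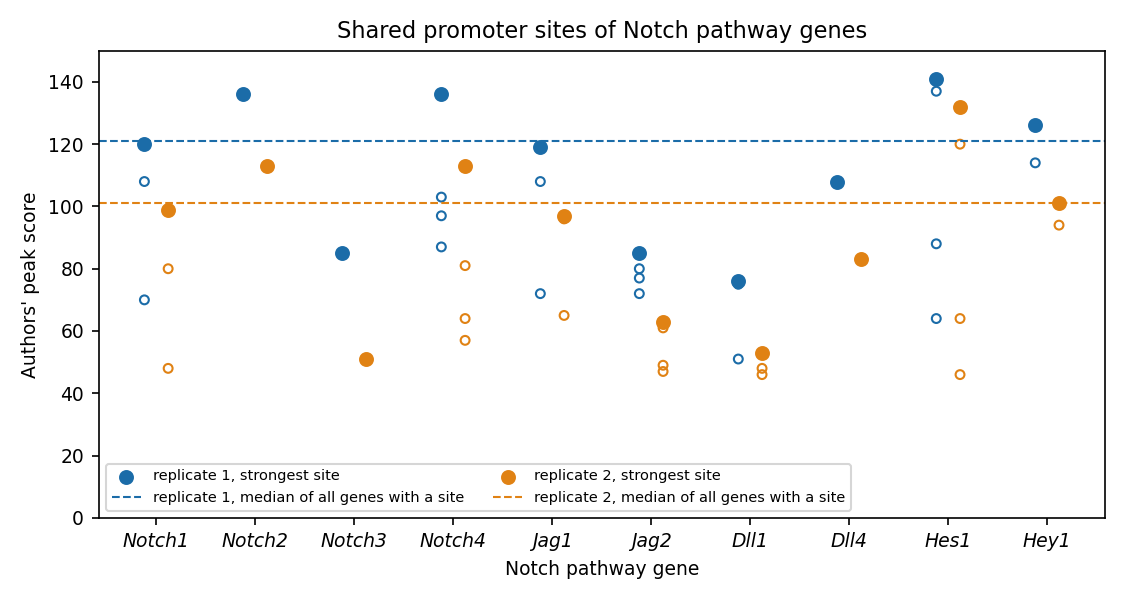
The authors' peak score (vertical axis, linear) at every shared promoter site of each gene, with replicate 1 in blue left of replicate 2 in orange, filled circles for the strongest site of the gene and open circles for its other sites. Dashed lines give the medians of the strongest score over all 15010 genes with a shared promoter site, 121 in replicate 1 and 101 in replicate 2; Hes1 stands highest, at 141 and 132, and Dll1 is lowest in replicate 1, at 76.

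Among the receptors, Notch2, which with Notch1 acts in airway cell choice, had the strongest site at its annotated start. Notch2 (chr3:98013527-98150361, plus strand) scored 136 in replicate 1 and 113 in replicate 2 at one site centred 57 bp from the TSS. Those scores were at or above those of 81.0% and 68.7% of the genes with a shared promoter site. Notch1 (chr2:26457903-26516663, minus strand), the receptor known from arterial and T cell development, scored 120 in replicate 1 and 99 in replicate 2, at percentiles 48.7 and 47.5 of those genes. That site lay 2 bp from the start of the longest coding transcript. A second Notch1 site, 276 bp from the nearest TSS, scored 108 in replicate 1 and 80 in replicate 2. The gene model of Notch1 begins 12841 bp upstream of the longest coding transcript. At that upstream start another site scored 70 in replicate 1 and 48 in replicate 2, lower than both sites at the coding start.

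Notch3, the receptor of vascular smooth muscle and pericytes, had the weakest promoter of the receptors by sites within 500 bp of a TSS. Notch3 (chr17:32120820-32166852, minus strand) scored 85 in replicate 1 and 51 in replicate 2 at one site 38 bp from the TSS, at percentiles 19.2 and 13.2. Notch4 (chr17:34564268-34588503, plus strand), a receptor of endothelial cells, reached 136 in replicate 1 and 113 in replicate 2, the same scores as Notch2. However, that Notch4 site was not at the start of the gene. It lay 23332 bp downstream of it, in exon 30 of the longest coding transcript and 559 bp from the nearest TSS of a shorter Notch4 model. Next to it, in intron 28, a site scored 103 in replicate 1 and 81 in replicate 2. At the annotated start of the full Notch4 transcript a site scored 87 in replicate 1 and 64 in replicate 2, and another in intron 1 scored 97 and 57. Measured at the start of the longest coding transcript, Notch4 thus stood near Notch3 in replicate 1 rather than level with Notch2, a reading chosen after its values were seen. The strongest scores of the other 9 members were the same at that start. The place of Notch3 depended on promoter width. A further shared Notch3 site, within 1000 bp of a TSS and not counted as a promoter site, scored 82 in replicate 1 and 70 in replicate 2. Taken as a promoter site, it would exceed the 51 of Notch3 and the 64 of Notch4 at the coding start in replicate 2.

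Among the ligands the strongest promoter scores ran from Jag1 and Dll4 down to Jag2 and Dll1 in both replicates. Jag1 (chr2:137081456-137116644, minus strand), the ligand whose loss of 1 copy causes bile duct and heart disease in humans, scored 119 in replicate 1 and 97 in replicate 2 at a site 166 bp from the TSS. The other 2 Jag1 sites scored 108 and 72 in replicate 1, and 96 and 65 in replicate 2. Dll4 (chr2:119325784-119335962, plus strand), the ligand of endothelial tip cells and arteries, scored 108 in replicate 1 and 83 in replicate 2 at its single site, 74 bp from the TSS. That site also lay within 500 bp of a TSS of the model Gm14207.

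Jag2 and Dll1 had the lowest promoter scores of the ligands. Jag2 (chr12:112907819-112929776, minus strand), the second Jagged ligand, had 4 sites that scored 72 to 85 in replicate 1 and 47 to 63 in replicate 2, a flat row with no single strong peak. Dll1 (chr17:15367354-15376872, minus strand), a Delta-like ligand known from somite formation, had 3 sites that scored 51 to 76 in replicate 1 and 46 to 53 in replicate 2. The strongest Dll1 scores were at percentiles 14.9 and 14.1, and those of Jag2 at 19.2 and 19.4. The percentile range of Notch3 over the replicates overlapped those of Jag2 and Dll1, so that its place relative to them could not be told.

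Hes1, the repressor that most tissues switch on with Notch signalling, had the strongest promoter of the 10 genes. Hes1 (chr16:30064384-30067796, plus strand) scored 141 in replicate 1 and 132 in replicate 2 at a site 110 bp from the nearest TSS, at percentiles 91.9 and 97.1. A second site, at the 5′ end of the gene model, scored 137 in replicate 1 and 120 in replicate 2. Introns 1 and 3 held 2 further sites, with 64 and 88 in replicate 1 and 46 and 64 in replicate 2. Hey1 (chr3:8663359-8667256, minus strand), a repressor of vessel and heart development, scored 126 in replicate 1 and 101 in replicate 2 in exon 1, at percentiles 59.2 and 50.1. A second Hey1 site, 254 bp from the TSS, scored 114 in replicate 1 and 94 in replicate 2. Hes1 and, next, Notch2 stood above Hey1 without overlap of their percentile ranges. Notch4 did so through its exon 30 site, whereas its 87 and 64 at the coding start were below the scores of Hey1.

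Hotspots, the broader regions in which the authors found more cuts than in the surroundings, gave the same count. A shared promoter hotspot was present at 10 of 10 members, against 69.1% of all protein-coding genes. The widest merged promoter hotspots were those of Hes1, with 4928 bp, and Jag1, with 4321 bp. Notch1 followed with 2436 bp, Notch3 with 1752 bp, Hey1 with 1748 bp and Notch4 with 1458 bp. That Notch4 hotspot lay over the site 23332 bp downstream of the start of the gene, not over the start itself. The same holds for the Notch4 hotspots of the single replicates below. Narrower ones lay at Dll1 (1307 bp), Notch2 (1242 bp), Jag2 (907 bp) and Dll4 (616 bp). These widths join overlapping hotspots of both replicates, so that their order depends on the merging. In replicate 1 the widest single hotspot was that of Jag1, with 4321 bp, and those of Hes1 reached 2949 bp. In replicate 2 single hotspots reached 2676 bp at Hes1, 2308 bp at Jag1 and 1669 bp at Hey1. Those of Notch4 (1149 bp) and Notch3 (800 bp) were also wider there than that of Notch1 (675 bp). Width and score did not follow the same order in the merged hotspots, since Notch2 had a high score in a narrow one and Notch3 a low score in a wider one. In replicate 1 these were 1242 bp at Notch2 and 1640 bp at Notch3. This did not hold in replicate 2, where the hotspots over the promoter sites had 534 bp at Notch2 and 477 bp at Notch3. In replicate 1 all 10 hotspots carried a −log10 q-value of 100, a value that 39.5% of all hotspots in that file shared. In replicate 2 the value was 100 at 7 members, 5.52 at Notch1, 5.40 at Jag2 and 3.59 at Dll1. No hotspot in either file had a value above 6 and below 100, so that the step between those values is a step of the deposited scale.

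Within 50 kb of the 10 gene bodies lay 231 shared sites, 168 sites of replicate 1 alone and 26 of replicate 2 alone. The shared fraction was 54.4% near the members and 55.5% in the whole series. Of the 231 shared sites, 26 were at the members' own promoters, 41 at promoters of other genes, and 11 were other sites within 1000 bp of a TSS. The remaining 153 were distal, 50 inside the gene bodies and 103 outside them. At least 1 shared distal site was present at 10 of 10 members, against 89% of all protein-coding genes. The members' median was 12.5 distal sites, against 8 for all genes, and 8 of 10 members were above that. Per 100 kb of window, which takes out gene length, the members' median was 9.65 against 5.96, and 9 of 10 members were above it. Of the 153 distal sites, 67 had a TSS of the member as the nearest TSS, and the others lay nearer to a TSS of another gene.

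**Figure D2:**
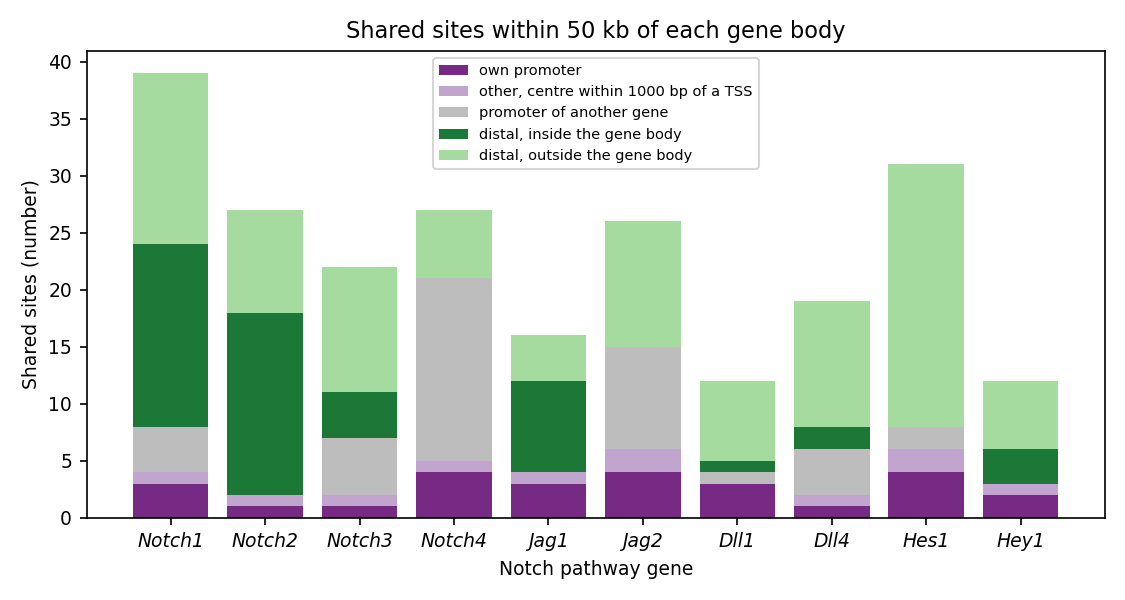
Number of shared sites within 50 kb of each gene body (vertical axis), stacked by class. Notch1 has the most sites, 39, and Hes1 follows with 31, while 16 of the 27 sites at Notch4 are promoters of other genes.

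Among the receptors, Notch1 was set in the densest group of distal sites. It had 31, of which 16 lay in the gene body and 11 upstream, at a density of 19.5 per 100 kb that 99.2% of genes did not exceed. Its distal scores had medians of 82 in replicate 1 and 58 in replicate 2. The strongest by its ranks in both replicates scored 114 in replicate 1 and 78 in replicate 2 and lay 9217 bp upstream of the nearest Notch1 TSS, one of the sequences with the RBPJ motif above. It hardly stood out, since other Notch1 distal sites also scored 114 in replicate 1 and another reached 80 in replicate 2. Notch2 had 25 distal sites, 16 of them spread through its body. The strongest of these, in intron 1 at 11132 bp downstream of the coding start, scored 128 in replicate 1 and 115 in replicate 2. In replicate 2 this intron site scored 2 units above the Notch2 promoter, which had 113. Its nearest TSS was that of the model Gm42819, 6017 bp away.

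Notch3 had 15 distal sites, and its strongest one scored above its promoter. In intron 2, at 4142 bp from the start, it scored 114 in replicate 1 and 88 in replicate 2, against promoter scores of 85 and 51. A neighbouring intron 2 site, shown above with its RBPJ motif, scored 105 in replicate 1 and 81 in replicate 2. Notch4 had 6 distal sites and none inside its body. Its window is crowded, with 9 other protein-coding genes, among them the alveolar type I cell gene Ager, and 16 of its 27 shared sites were promoters of other genes. The strongest distal site there scored 93 in replicate 1 and 70 in replicate 2, lay 68262 bp downstream of the Notch4 start, and was nearest to Prrt1. None of the 6 distal sites had a Notch4 TSS as its nearest TSS, whereas 19 of 31 did at Notch1, 7 of 15 at Notch3 and 5 of 25 at Notch2.

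The ligands Jag1 and Dll4 differed in where their sites lay. Jag1 had 12 distal sites, 8 in the gene body and all 12 nearest to a Jag1 TSS. Its strongest, in intron 2 at 2264 bp from the start, scored 124 in replicate 1 and 99 in replicate 2, slightly above its promoter scores of 119 and 97. Dll4 had 13 distal sites, 8 of them upstream, with 3 other protein-coding genes in the window. Its strongest, shown above, lay 12286 bp downstream of the start and beyond the end of the gene. That site scored 133 in replicate 1 and 99 in replicate 2, above the Dll4 promoter in both replicates. Of the 13 sites, 2 had a Dll4 TSS as the nearest one.

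Jag2 had 11 distal sites, none in its body. The strongest scored 124 in replicate 1 and 90 in replicate 2, 31796 bp downstream of the Jag2 start, well above the promoter scores of 85 and 63. Dll1 had 8 distal sites, equal to the median of all genes. The strongest by its ranks in both replicates, 1258 bp from the nearest Dll1 TSS, scored 93 in replicate 1 and 69 in replicate 2, and another site scored 85 and 72. Thus at all 4 ligands the strongest distal site scored higher than the strongest promoter site in both replicates. At Jag1 the margin was small and depended on promoter width. A further shared Jag1 site, within 1000 bp of a TSS and counted in neither class, scored 121 in replicate 1 and 100 in replicate 2. Taken as a promoter site, it would exceed the 99 of the distal site in replicate 2. Among the other 6 members a stronger distal site was found at Notch3 in both replicates and at Notch2 in replicate 2 alone. In all, 5 of 10 members had a stronger distal site in both replicates, against 28.7% of the 15010 genes with a shared promoter site, a count chosen after the values were seen. That share was not limited to genes with as many distal sites, of which the members had a median of 12.5 against 8 for all genes. The part of this number in the count was not tested. With promoters taken at the start of the longest coding transcript the count was 6 of 10, since the 93 and 70 of the Notch4 distal site exceed 87 and 64.

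Hes1 had the highest density of distal sites of the 10 genes. No other protein-coding gene lies within 50 kb of it, and its window held 23 distal sites, all outside its short body, with 12 upstream and 11 downstream. The density of 22.2 per 100 kb was not exceeded by 99.7% of genes. Of these sites, 10 lay within 10 kb of the coding start, and 11 had a Hes1 TSS as the nearest one. The 23 distal scores had medians of 84 in replicate 1 and 54 in replicate 2. Hey1 also stood alone in its window, yet held 9 distal sites. The strongest lay in exon 5 and scored 90 in replicate 1 and 81 in replicate 2, below its promoter in both.

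**Figure D3:**
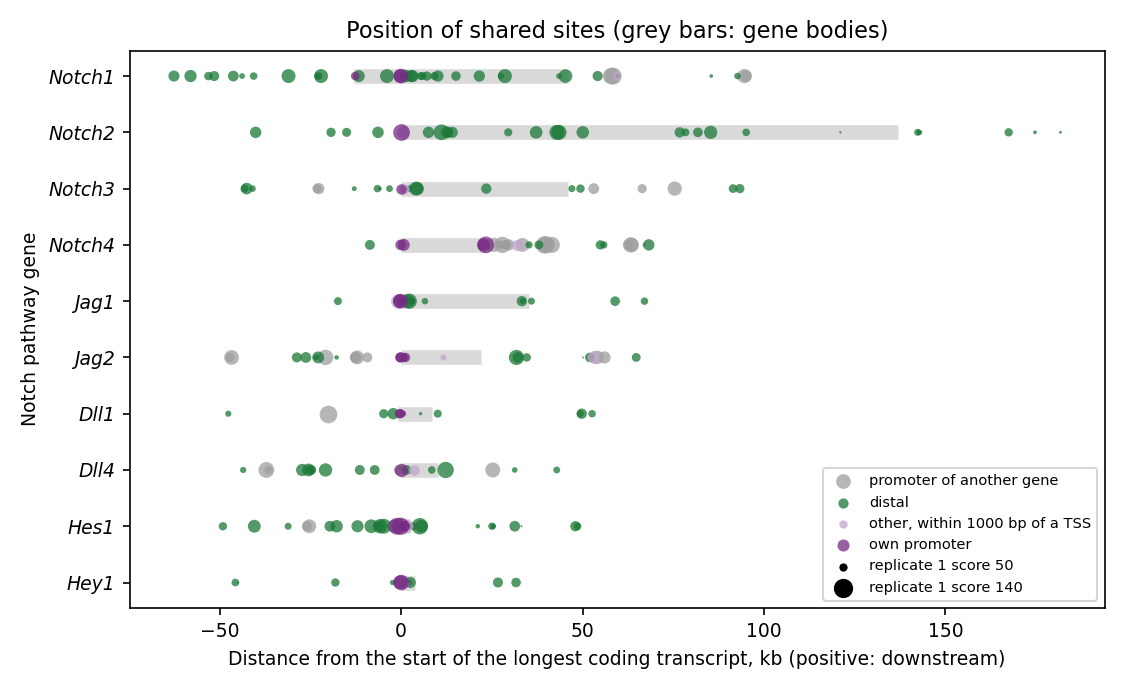
Position of each shared site relative to the start of the longest coding transcript (horizontal axis, kb, positive downstream), 1 gene per line, with grey bars for gene bodies, colours for site class and point area growing with the replicate 1 score. Sites are dense on both sides of Hes1 and along Notch1, and the strong Notch4 promoter site lies near the 3′ end of the gene body.

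The replicates ranked the sites near these genes alike, while replicate 1 scored higher. Over the 231 shared sites, Spearman's rho between the scores was 0.93, a description of sites that share their libraries. Sites of replicate 1 alone had a median score of 47, against 82 for shared sites in that replicate. Sites of replicate 2 alone had a median of 33, against 58. Sites found in 1 replicate were therefore weaker on the median. Over all genes with a shared promoter site, the log2 ratio of the replicate 1 to the replicate 2 score had a median of 0.25, and since the scale may differ between the files, the members were read against it. Their ratios less that median ranged from -0.15 at Hes1 to 0.49 at Notch3, with a median of 0.06, and 9 of 10 were above 0. The median SD between replicates over all genes, on the same centred log2 scale, was 0.072. That SD is the difference between replicates divided by the square root of 2, whereas the members' values are undivided differences. The upper quartile of such undivided values over all genes was 0.12. The 3 members with the lowest promoters had the highest differences, 0.49 at Notch3, 0.27 at Dll1 and 0.19 at Jag2. Set against promoter sites of similar score instead, Notch3 kept a difference of 0.25, Dll1 had 0.02 and Jag2 -0.03. Both Notch3 differences rest on its single shared site within 500 bp of a TSS. The further Notch3 site within 1000 bp scored 82 in replicate 1 and 70 in replicate 2, closer together than 85 and 51.

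The motif of RBPJ, the DNA-binding partner of the Notch intracellular part, was searched in the 150 bp at the centre of each shared site on both strands. GTGGGAA was found in 5 of the members' 26 promoter sites, or 19.2%, against 3.12% of all 32270 shared promoter sites. In distal sites it was found in 12 of 153, or 7.84%, against 3.43% of all 120866. The members' sites were richer in GC, with medians of 65.3% against 60.7% in promoter sites and 54% against 48.7% in distal sites, and the part of GC content in these shares was not tested. Sites of 1 gene share their neighbourhood and are not independent, and a match is a description of the letters.

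The RBPJ matches were held by 8 of the 10 genes, and none were found at Jag2 and Dll1. At least 1 such promoter or distal site was held by 29% of all protein-coding genes, and by 43.7% of the 11454 genes with 8 or more shared distal sites in the window, a number that 9 of the 10 members reached. Hes1 held 3 of the 5 promoter matches, in its strongest site (141 and 132) and in both intron sites, a gene whose promoter is a textbook target of RBPJ. The other promoter matches lay at the upstream start of Notch1 (70 and 48) and in intron 1 of Notch4 (97 and 57). Notch1 held 5 of the 12 distal matches, 4 of them upstream of the gene model. Dll4 had 2 distal matches, in introns 3 and 10. Notch2 in intron 6, Notch3 in intron 2, Notch4, Jag1 and Hey1 had 1 distal match each. The only matches of Notch2 and Hey1 were nearest to a TSS of another gene. So were the distal match of Notch4, some of those of Notch1 and that in intron 3 of Dll4. In the promoters of RefSeq, which run from 250 bases before to 50 after a start, 8 of the 10 members matched by symbol, all except Hes1 and Hey1. Of their 9 promoters 0 held GTGGGAA, against 6.38% of 32851 promoters. Hes1, with 3 of the 5 promoter matches above, was thus not searched there. The windows searched do not hold the Notch1 and Notch4 promoter sites with the motif.

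The other motifs were found near these genes at shares above, near or below those of all sites. The HES N-box CACNAG, which Hes proteins bind, was present in 23.1% of the members' promoter sites against 25.04% of all, and in 37.3% of distal sites against 32.9%. The E-box CACGTG was found in 2.61% of distal sites against 2.89%, and in 0 of 26 promoter sites against 5.33%. In distal sites the TEAD motif GGAATG was found in 14.4% against 12.9%, the AP-1 motif TGANTCA in 13.7% against 10.3%, the SOX motif ACAATG in 7.84% against 8.49%, and the forkhead motif TGTTTAC in 5.23% against 4.31%. The ETS motif CCGGAA was found in 5.88% of distal sites against 3.13%, and in 1 of 26 promoter sites (3.85%) against 12.8%. The AP-1 motif was found in 0 of 26 promoter sites against 4.66%. The CTCF motif was found in 6.54% of distal sites against 11.2%. Promoter shares rest on 26 sites, in which 1 site more or less moves a share by several percentage points. The TEAD motif starts with the letters GGAA with which the ETS motif ends and GTGGGAA ends too, so that it can overlap either.

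**Figure D4:**
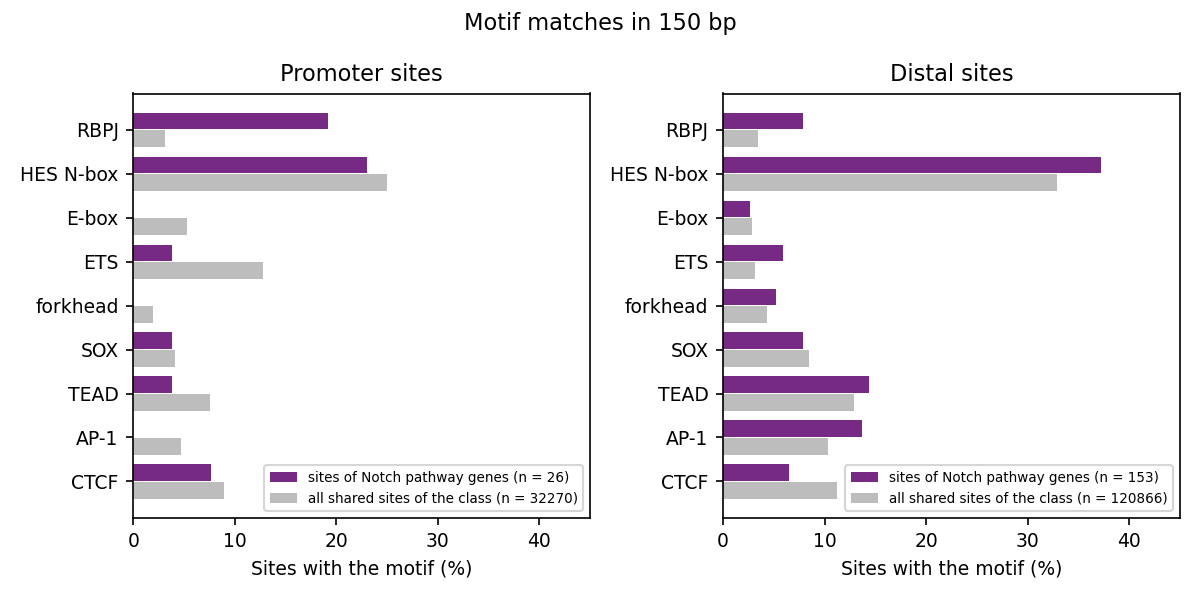
Share of shared sites with each motif in their central 150 bp (horizontal axis, %), at promoter sites (left) and distal sites (right), for the Notch pathway genes in purple above all shared sites of the class in grey. The RBPJ share is 19.2% of 26 promoter sites and 7.84% of 153 distal sites of the members, against 3.12% and 3.43% of all sites.

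The other 40 genes of the pathway had open promoters almost throughout. A shared promoter site was present at 39 of 40, or 97.5%, against 68.5% of all protein-coding genes, and their median scores were 123 and 106. The highest were Adam10, the protease of the first receptor cut after ligand binding (148 and 136), and Numb, an adaptor that lowers receptor levels (145 and 131). They were followed by Adam17, a related protease (140 and 133), Aph1a, a part of gamma-secretase (143 and 127), and Maml1, a Mastermind coactivator (140 and 129). The medians of 119.5 and 98 over the 10 members were below those of the 9 cleavage enzymes, 139 and 127. Nuclear factors had medians of 132.5 and 120 over 6 genes, and Rbpj itself scored 141 and 118. The 3 further ligands, Dll3, Dlk1 and Dlk2, had medians of 78 and 61, low like Dll1 and Jag2. Among 6 further targets, Hes7, the clock gene of somite formation, was the gene with no shared site, with a peak of 56 in replicate 1 alone.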

How the data were processed

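DNase-seq of newborn whole lung was analysed in 2 replicates, numbered as in the labels. The authors called peaks and hotspots for each library separately on mm10, according to notes deposited beside the files; the aligner and the peak caller are not given in the sources used here. Deposited peaks carry a score of unknown meaning, used as it stands to rank peaks. Hotspots carry a −log10 q-value, a column of the deposited file format. Intervals on the 21 assembled chromosomes were kept, and 0 ended past a chromosome end of GRCm38. Without counts or depths no counting interval can be given, and with 1 group of 2 replicates no test was made.

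Peaks overlapping by at least 1 bp were merged into sites. GENCODE release M21 gave TSSs and gene bodies. A percentile is the share of genes at or below a value. Named were all 10 members, of the other pathway genes the 5 with the highest mean percentile and any without a shared promoter site, all shared promoter sites and each member's strongest distal site, except that of 1 member, which is not reported here. Other genes (Alb, Scgb1a1, Rbpj, neighbours of members) were named after their values were seen. The members, lists and motifs were chosen with earlier results of these data known. RefSeq promoters matched all members except Hes1 and Hey1. Merging and window counts were tested on simulated intervals. Alternatives covered promoter width, window, overlap, score, gene models, motif and each replicate alone. Python 3.11.15, NumPy 2.4.6, pandas 2.3.3, SciPy 1.17.1 and matplotlib 3.10.9 were used.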

Additional observations from a re-analysis of the deposited data

How the results depend on the processing

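All 10 members kept a shared promoter site under each of the 6 settings of width, overlap, TSS choice, score and gene model, and in each replicate alone. Members with more than 1 such site numbered 7 as reported. They numbered 10 at a half-width of 1000 bp, 6 with RefSeq gene models and 3 at the 5′ end of the gene model alone. In 1 replicate alone there were 7 to 9. These settings for that count were added after the data were seen. Of the other pathway genes, 36 to 40 of 40 had a shared promoter site under the alternatives run. The count of 231 shared sites became 355 in a window of 100 kb and 101 when the member's TSS had to be the nearest, as follows from the region searched; with 1 replicate alone it ranged from 261 to 411, since no overlap was then required. The 17 sites with the RBPJ motif became 33 in a 300 bp window, 43 with the shorter motif TGGGAA, and 21 to 29 in 1 replicate alone, by construction of wider or looser searches. At the start of the longest coding transcript, a setting chosen after seeing the data, Notch4 scored 87 and 64 in place of 136 and 113. Against promoter sites of similar score, the ratio less its reference was -0.03 at Jag2, below 0, and the cause was not tested. Of the values of single genes under alternatives, 53 moved beyond 1 SD between replicates or by more than 1.5 times and 157 did not; 12 of the 53 were counts of sites in replicate 1 alone, which were higher. With 2 replicates and a score of unknown scale, small differences in score between members cannot be read. No paired analysis was possible because the series held 1 group.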
